A study of Arabidopsis thaliana with 8 samples.

Results

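Transcript levels of cold-exposed sfr3 plants of Arabidopsis thaliana were compared with those of cold-exposed wild-type plants, on 2 arrays of each genotype out of the 8 arrays of the series. The 4 cold arrays were taken by their labels, and the 2 warm sfr3 and 2 warm wild-type arrays served as the same genotype contrast without cold. The wild type was the accession Col-0. The sfr3 line carries a mutation made with ethyl methanesulfonate (EMS) in that accession. All plants were sown on compost, kept at 4 °C for 48 h as seed and grown at 20 °C under short days (8 h light, 16 h dark, 70% humidity); the labels give 38 days of growth and developmental stage 1.14. How cold the treatment was and how long it lasted is not stated in the labels used here. Whole rosettes are named as the wild-type harvest and aerial parts as the sfr3 harvest, so the harvested tissue and the genotype cannot be told apart. EMS mutagenesis can leave other mutations in a line, and 1 mutant line was used.

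The sfr (sensitive to freezing) mutants are damaged by freezing even after cold acclimation, in which plants exposed to low temperatures above freezing become hardier. The gene affected in sfr3-1 is known to be ACC1, the cytosolic acetyl-CoA carboxylase. This enzyme makes the malonyl-CoA that elongates fatty acids to the very-long-chain forms found in the cuticle, the layer of cutin and wax that covers the shoot epidermis. ACC1 has no value here because the annotation paired it with no probe set. The deposited MAS5 signals are linear intensities, and differences below are on the scale of log2(signal + 2.17), which understates the change of dim genes. No sequences of the genes or probes were used here.

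Cold sfr3 replicate 1 stood apart from the other arrays. Its median signal was 52.4, against 36.6 to 39.0 elsewhere, and its 18 hybridisation controls, bacterial transcripts added to each sample, had 5.75 times their median on the other arrays (0.542 to 1.18 for the others). Its background level, the 95th percentile of 27 control probe sets that should stay dark, was 35.4. That level was 9.33 on cold sfr3 replicate 2, 8.18 and 8.57 on the cold wild-type arrays and 6.37 to 11.3 on the warm arrays. The 2 cold sfr3 replicates differed by a median of 0.552 on the log2 scale, against 0.179 for the cold wild-type replicates and 0.231 and 0.214 for the warm groups. The linear model shares 1 estimate of the spread over all 8 arrays (median residual SD 0.292), so its p-values rest on a smaller spread than the one between the cold sfr3 arrays. The called genes and the gene lists are therefore given with and without that array.

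In the cold, 17 of the 13648 probe sets tested were called, which is 0.125%: the adjusted p of limma was below 0.05 and both sfr3 arrays lay on the same side of both wild-type arrays. Of these, 14 (0.103%) were higher in sfr3 and 3 (0.022%) were lower. The 6 that the annotation paired with 1 gene comprised AT2G16630, which encodes a proline-rich wall protein of the Ole e 1 type, AT5G47330 of the palmitoyl protein thioesterase family, the GDSL-type lipase gene AT2G04570, the glycine-rich protein gene AT2G05540 and AT5G53710 among those higher, and HAT2, an auxin-induced transcription factor gene, as the lower one. The other 11, of which 9 were higher and 2 lower, had no gene in the annotation. At an unadjusted p below 0.05 the number was 1775 (13.0%), and 5712 probe sets (41.9%) had groups that did not overlap.

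The count rested on single arrays. Without cold sfr3 replicate 1 it was 106 (0.777%), with 54 (0.396%) higher and 52 (0.381%) lower. All 17 were among them, with adjusted p of at most 0.0108. Without cold sfr3 replicate 2, so that cold sfr3 was represented by the array that stood apart, it was 5372. Without cold wild-type replicate 1 or 2 it was 6 or 7, and without 1 warm array it was 11 or 12. Where a group was left with 1 array, that array was taken to vary like the other groups. A fit on the 4 cold arrays alone called 4.

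AT2G16630, the gene of a guard-cell proline-rich protein known as FOCL1, had signals of 475 and 572 on the cold sfr3 arrays and of 46.9 and 57.2 on the cold wild-type arrays. The sfr3 arrays were far above both wild-type arrays. The log2 difference was 3.28 (SE 0.21, adjusted p = 5.31e-04), and 3.41 without cold sfr3 replicate 1 (adjusted p = 1.42e-05). In the warm the signals were 75.7 and 82.9 in sfr3 and 76.5 and 81.1 in wild type, so that the genotypes overlapped there. The gene was called under all 17 settings that were run. It is the only member of its family that was called: of 8 tested genes of the Ole e 1 and related proline-rich wall proteins, 3 had groups that did not overlap and were higher (20.7% of all probe sets), 3 were lower (21.2% of all), and the median log2 difference was -0.15 (0.04 without cold sfr3 replicate 1). Over all probe sets the median was -0.01, and 0.01 without that array. Its relative AT3G26960 had signals of 115 and 87.5 in cold sfr3 and of 177 and 166 in cold wild type, a log2 difference of -0.76 (adjusted p = 0.339). AT2G47540, another member, had 100.2 and 26.7 in cold sfr3 against 10.4 and 18.9 in cold wild type, a log2 difference of 1.74 that was 0.83 without cold sfr3 replicate 1; it passed the filter on mean signal only through cold sfr3.

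AT5G47330 encodes a protein of the palmitoyl protein thioesterase family, enzymes that remove palmitate from proteins. Its signals were 258 and 255 in cold sfr3 and 16.6 and 12.8 in cold wild type. This was the largest difference among the called genes with a name, 3.95 on the log2 scale (SE 0.34, adjusted p = 0.00177), and 3.94 without cold sfr3 replicate 1 (adjusted p = 2.90e-04). The call was lost when the 4 cold arrays were fitted alone. The warm signals, 43.9 and 28.9 in sfr3 and 29.5 and 26.3 in wild type, were close to each other. Only 2 of the 7 family members passed the filter on mean signal, AT5G47330 only through the cold sfr3 arrays; without the filter it was called too (adjusted p = 0.00279). The other, AT3G60340, had 191 and 139 in cold sfr3 and 81.1 and 62.9 in cold wild type. Its groups did not overlap either, but the log2 difference of 1.17 was not called (adjusted p = 0.220).

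AT2G04570 belongs to the GDSL-type esterases and lipases, a large family of secreted hydrolases that includes the cutin synthases. Its signals were 572 and 491 in cold sfr3 and 66.7 and 77.1 in cold wild type, with a log2 difference of 2.85 (SE 0.30, adjusted p = 0.00739). Without cold sfr3 replicate 1 the difference was 2.74 (adjusted p = 0.00198). The call was lost without either cold wild-type array (adjusted p up to 0.145). In the warm both genotypes were dimmer than in the cold, with 25.6 and 33.9 in sfr3 and 26.5 and 46.0 in wild type. Of the 35 GDSL genes tested, this was the 1 called. Among all 35, 12 were higher (20.7% of all probe sets) and 8 lower (21.2% of all) with groups that did not overlap, and the median log2 difference was 0.06 (0.05 without cold sfr3 replicate 1). Of the 35, 5 passed the filter on mean signal only through the cold sfr3 arrays, and 4 of these were among the 12 higher ones. Such passage favours genes that are bright in cold sfr3, which leaves the count and the median as descriptions.

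Other GDSL genes lay on both sides. AT5G45670 had signals of 20.3 and 17.3 in cold sfr3 and of 52.6 and 52.8 in cold wild type. The 2 wild-type arrays agreed closely and both sfr3 arrays were dimmer, although replicate 1 of sfr3 was below its background level. The log2 difference was -1.39 (adjusted p = 0.275), and without cold sfr3 replicate 1 it was -1.50 and called (adjusted p = 0.0322). AT2G27360 had 24.8 and 38.4 against 79.2 and 70.0 (log2 -1.21, adjusted p = 0.340). Its difference was -0.92 without cold sfr3 replicate 1, whose signal was below background. AT5G55050 had 137 and 104 in cold sfr3 against 61.0 and 66.7 in cold wild type (log2 0.88, adjusted p = 0.361). In AT5G37690, by contrast, the 208 of cold sfr3 replicate 1 stood alone against 28.2 on replicate 2 and 27.8 and 13.1 in wild type.

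AT5G53710, for which the annotation gives no function, had signals of 167 and 167 in cold sfr3 and of 22.8 and 14.8 in cold wild type. The log2 difference was 3.04 (SE 0.37, adjusted p = 0.0176), and 3.04 without cold sfr3 replicate 1. It passed the filter on mean signal only through cold sfr3, and without the filter its adjusted p was 0.0308. It was called under 8 of the 16 settings in which it was tested. AT2G05540, a gene of the glycine-rich protein family, was bright in the warm, with 2310 and 2356 in sfr3 and 2384 and 2454 in wild type, and much dimmer in the cold. Its cold signals were 153 and 138 in sfr3 and 58.5 and 64.7 in wild type. The sfr3 arrays were higher by 1.21 on the log2 scale (SE 0.16, adjusted p = 0.0296), and by 1.14 without cold sfr3 replicate 1. It was called under 6 of 17 settings.

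HAT2 encodes a class II homeodomain-leucine zipper protein whose transcript rises with auxin. Its signals were 6.31 and 6.15 in cold sfr3, below background on both arrays, and 50.6 and 41.7 in cold wild type, above background on both. Cold sfr3 was thus at least 2.53-fold lower, taking each array's background level as the limit; the log2 difference of the measured values was -2.52 (SE 0.23, adjusted p = 0.00246; -2.53 without cold sfr3 replicate 1). The call was lost when the 4 cold arrays were fitted alone and without cold wild-type replicate 1. In the warm the gene was bright and the genotypes overlapped, with 451 and 552 in sfr3 and 485 and 428 in wild type. Of 4 tested auxin and shade response genes HAT2 was the only one called. GH3.3 and WES1, which conjugate auxin to amino acids, were not called. GH3.3 had signals of 37.3 and 19.4 in cold sfr3 and of 3.20 and 15.3 in cold wild type (log2 1.59, and 1.16 without cold sfr3 replicate 1). Its 3.20 was below the background level of that array (8.18), and its 37.3 was only just above the level there (35.4). WES1 had 173 and 46.4 against 35.1 and 39.6 (log2 1.22, and 0.30 without that array). The repressor gene IAA29 had a log2 difference of -0.39. The groups did not overlap in these 3 genes, as in 41.9% of all probe sets.

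**Figure D1:**
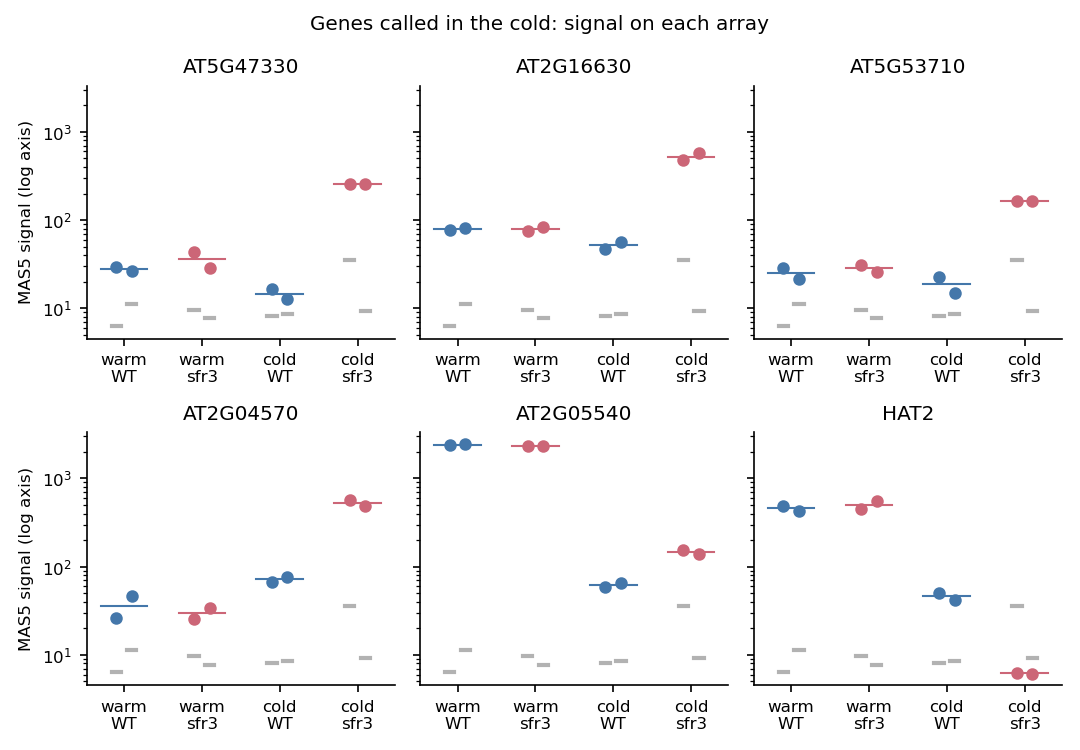
MAS5 signal (log axis) of the 6 named genes called in the cold, on each of the 8 arrays: points are arrays, coloured lines group means, and short grey bars the background level of each array; WT is wild type. The cold sfr3 arrays lie above cold wild type for 5 genes and below it, under background, for HAT2, while the warm genotypes lie close together.

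Among the called probe sets without a gene in the annotation, 247718_at had the largest difference of all, with signals of 2518 and 1765 in cold sfr3 and of 87.5 and 51.5 in cold wild type (log2 4.93, SE 0.38, adjusted p = 0.00109). 247717_at had 2387 and 3205 against 233 and 175 (log2 3.76, adjusted p = 4.92e-04). 264146_at had 577 and 774 against 84.6 and 100.5 (log2 2.83, adjusted p = 0.00109). These probe sets were among the brightest in cold sfr3 of those called, and without cold sfr3 replicate 1 their log2 differences were 4.67, 3.97 and 3.04. 261639_at was lower in sfr3, with 47.9 and 85.9 against 399 and 408 (log2 -2.61, adjusted p = 0.00505; -2.20 without cold sfr3 replicate 1). It was also the only called probe set with a difference of comparable size in the warm, where sfr3 had 108 and 121 and wild type 414 and 395 (log2 -1.81). 245276_at had 8.31 and 5.73 against 34.8 and 30.7 and was not above background in cold sfr3, at least 1.80-fold lower (adjusted p = 0.0249, and 4.22e-04 without cold sfr3 replicate 1). The 6 remaining probe sets were all higher in sfr3, with log2 differences of 1.50 to 3.32 (adjusted p from 0.00177 to 0.0280).

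**Figure D2:**
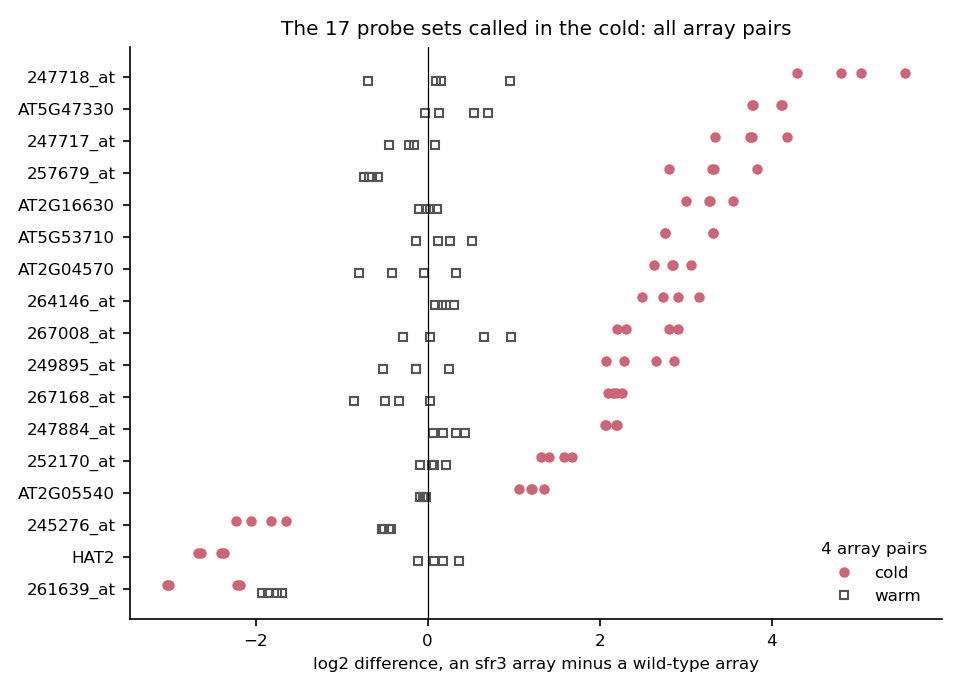
Log2 differences of the 17 called probe sets for the 4 pairs of an sfr3 and a wild-type array, in the cold (filled circles) and in the warm (open squares). All cold pairs lie on one side of 0, as a call requires, and all warm pairs other than those of 261639_at lie within 1 of 0.

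The same contrast in the warm gave 0 calls (0.0%), with 102 probe sets (0.747%) at an unadjusted p below 0.05. Of the 17 probe sets called in the cold, 16 had a warm difference of less than 1 on the log2 scale in either direction, over a range of -1.81 to 0.34, and 10 had the same sign as in the cold. Whether the genotype difference depended on temperature was tested as an interaction, the difference in the cold minus that in the warm. It was called for 5 probe sets (0.0366%), all of which were also called in the cold: AT2G16630 (3.27, adjusted p = 0.0112), HAT2 (-2.65, adjusted p = 0.0416, from cold sfr3 signals below background), 247717_at (3.95, adjusted p = 0.00683), 247718_at (4.80, adjusted p = 0.0310) and 264146_at (2.64, adjusted p = 0.0310). For AT5G47330 (3.61, adjusted p = 0.0573) and AT2G04570 (3.08, adjusted p = 0.0667) it was not called. The number of interaction calls ranged from 0 to 3802 when 1 array was left out: 16 without cold sfr3 replicate 1, 3802 without cold sfr3 replicate 2, 1 and 0 without cold wild-type replicates 1 and 2, 0 and 2 without warm sfr3 replicates 1 and 2, and 0 without either warm wild-type array.

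**Figure D3:**
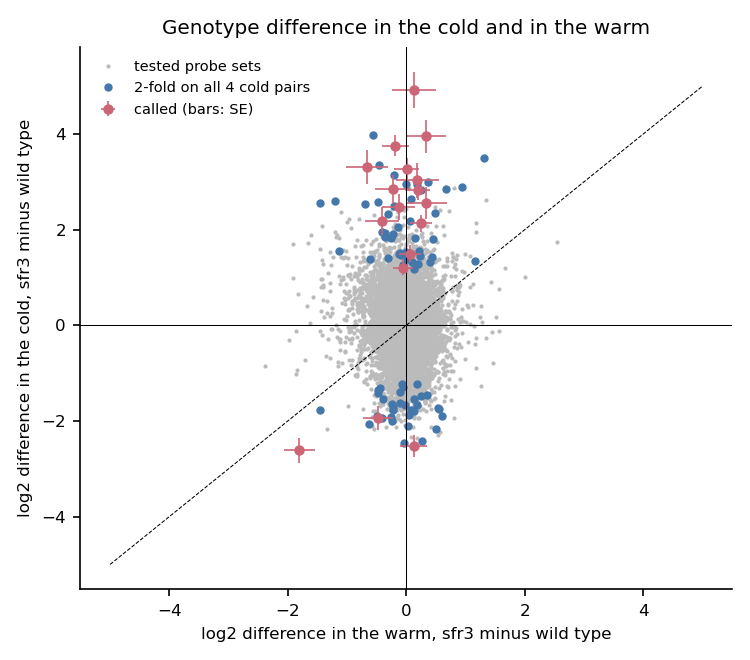
Log2 difference between sfr3 and wild type in the cold (vertical axis) and in the warm (horizontal axis) for all tested probe sets (grey), for those with a 2-fold difference on all 4 cold array pairs (blue) and for those called (red, with standard errors); the dashed line marks equal differences. The called probe sets spread along the vertical axis, with 1 also displaced to -1.81 in the warm.

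A second description does not use the model. It takes the probe sets in which every cold sfr3 array differed at least 2-fold from every cold wild-type array and both arrays of the higher group were above background; this rule was chosen after the values were seen. It held for 94 probe sets (0.689%), 58 higher (0.425%) and 36 lower (0.264%) in sfr3, and for 14 (0.103%) in the warm. All 17 called probe sets were among the 94, and 51 of the 94 were paired with 1 gene. Of the 58 higher ones, 16 were over 2-fold brighter on cold sfr3 replicate 1 than on replicate 2, and 23 passed the filter on mean signal only through cold sfr3. Without that array the rule held for 256 probe sets, without cold sfr3 replicate 2 for 2891, and without cold wild-type replicate 1 or 2 for 244 or 227.

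**Figure D4:**
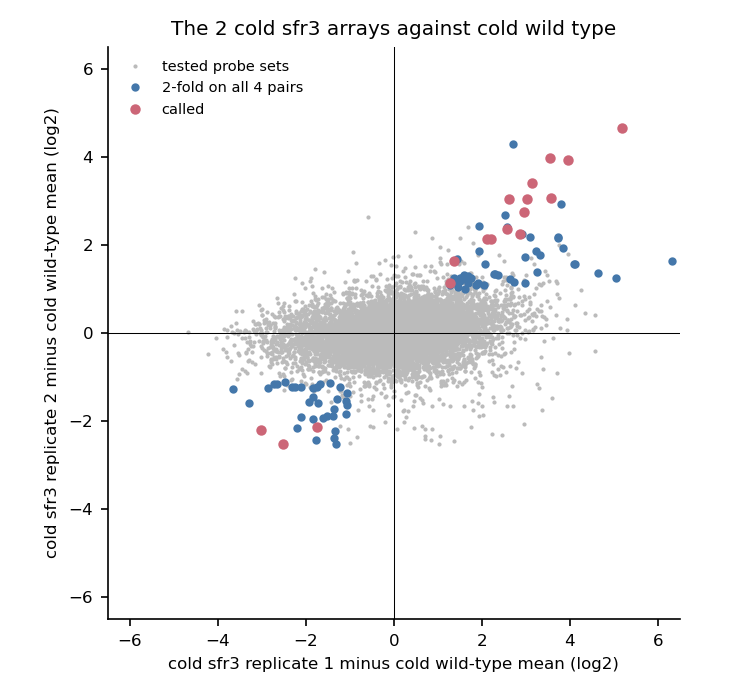
Log2 difference of each tested probe set from the cold wild-type mean on cold sfr3 replicate 1 (horizontal axis) and on cold sfr3 replicate 2 (vertical axis); grey, all tested; blue, 2-fold on all 4 array pairs; red, called. The cloud is wider along replicate 1. The called probe sets lie near the diagonal, where a call is favoured because it requires both replicates on the same side of wild type.

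No gene of the wax list or of the cutin and suberin list was called among the few tested, 3 of 30 and 2 of 27. The called probe sets without a gene in the annotation may belong to genes of any kind. WSD1, a wax ester synthase, had signals of 39.8 and 123 in cold sfr3 and of 9.16 and 1.48 in cold wild type. Both sfr3 arrays were above both wild-type arrays and the replicates of each genotype were far apart. The log2 difference was 3.50 (SE 1.02, adjusted p = 0.333), and 4.29 without cold sfr3 replicate 1. The wild-type signal of 1.48 was below the background level of its array (8.57), so the size of the difference is uncertain. The 9.16 of wild type and the 39.8 of sfr3 were only just above theirs (8.18 and 35.4). In the warm the signals were 20.9 and 10.5 in sfr3 and 7.90 and 2.57 in wild type. WSD1 passed the filter on mean signal only through the cold sfr3 arrays. AT4G13840, a relative of the fatty acid elongation factor CER2, had 233 and 285 in cold sfr3 against 338 and 347 (log2 -0.41, adjusted p = 0.389), and AT5G61590, which encodes a repressor of wax synthesis known as DEWAX, had overlapping groups (log2 0.06). Of the cutin and suberin genes, SHN3, a transcription factor that activates cuticle genes, had 32.0 and 41.4 against 56.2 and 63.4 (log2 -0.68, adjusted p = 0.619). The SHN3 difference was -0.50 without cold sfr3 replicate 1, whose signal was below background. The cutin synthase gene AT5G33370, which is also among the GDSL genes tested, had overlapping groups (log2 0.06).

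Lipid transfer proteins are small secreted proteins that bind lipids. Only 9 of the 28 on the list were paired with a probe set, so others may be among the called probe sets without a gene. None of the 7 tested was called, and their median log2 difference was 0.24 (0.33 without cold sfr3 replicate 1). AT1G62510 had signals of 10.7 and 25.7 in cold sfr3 and of 54.1 and 41.3 in cold wild type (log2 -1.38, adjusted p = 0.295). Its signal on cold sfr3 replicate 1 was below background, and the difference was -0.83 without that array. AT2G37870, a lipid transfer protein gene outside that list, had 114 and 85.8 against 37.0 and 30.7 (log2 1.49, adjusted p = 0.317). Among genes that supply acetyl-CoA and fatty acids, 9 were tested and none was called, with log2 differences from -0.53 to 0.14 and a median of -0.12 (0.03 without cold sfr3 replicate 1). ACLA-2, a subunit of the ATP-citrate lyase that makes cytosolic acetyl-CoA, the substrate of ACC1, had 98.4 and 116 in cold sfr3 against 117 and 145 in cold wild type (log2 -0.28, adjusted p = 0.560). AT1G24360, a reductase of plastid fatty acid synthesis, had 648 and 598 against 552 and 575 (log2 0.14). Only 9 of the 36 genes on the list were tested.

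The extensins differed mainly on 1 array. They are hydroxyproline-rich structural proteins of the wall, and 5 of the 6 tested had higher groups that did not overlap (20.7% of all probe sets); none was called. AT3G54580 and AT1G26240 passed the filter on mean signal only through the cold sfr3 arrays, and only 6 of the 11 paired extensins were tested, so the count and median below describe the members that passed. AT3G54580 had signals of 368 and 61.2 in cold sfr3 and of 15.0 and 24.3 in cold wild type (log2 2.85, adjusted p = 0.314). HRGP1 had 642 and 94.0 against 57.7 and 53.6 (log2 2.11, adjusted p = 0.340). In both genes replicate 1 was several times brighter than replicate 2, and the median of the 6 extensins was 2.00 with that array and 0.55 without it. Extensin repeats are alike between genes, so probe sets of this family may detect one another's transcripts. Of 12 glycine-rich protein genes, 7 were higher without overlap (20.7% of all probe sets), 1 lower (21.2% of all), and only AT2G05540 was called. Of the 7, 2 (AT2G05530 and AT2G05580) passed the filter only through cold sfr3; the median was 0.85, and 0.42 without cold sfr3 replicate 1. AT4G21620 of this family had 803 and 751 in cold sfr3 against 377 and 350 in cold wild type (log2 1.09, adjusted p = 0.221; 1.04 without replicate 1), and here the replicates of each genotype were close.

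Expansins loosen the wall and xyloglucan endotransglucosylases (XTH) cut and rejoin its xyloglucan chains. Of 16 tested, none was called, 2 were higher (20.7% of all probe sets) and 4 lower (21.2% of all) without overlap, and the median was -0.20 (-0.05 without cold sfr3 replicate 1). XTH16 had signals of 36.0 and 43.4 in cold sfr3 and of 74.6 and 66.0 in cold wild type (log2 -0.80, adjusted p = 0.382). None of the 16 passed the filter on mean signal only through cold sfr3. XTH18 had 75.8 on cold sfr3 replicate 1 and 3.9 on replicate 2, so its log2 difference of 1.95 became 0.11 without replicate 1. Of 3 tested genes of cellulose, pectin and lignin synthesis none was called; HCT, an acyltransferase of lignin synthesis, had 489 and 435 against 365 and 372 (log2 0.32, and 0.24 without cold sfr3 replicate 1).

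**Figure D5:**
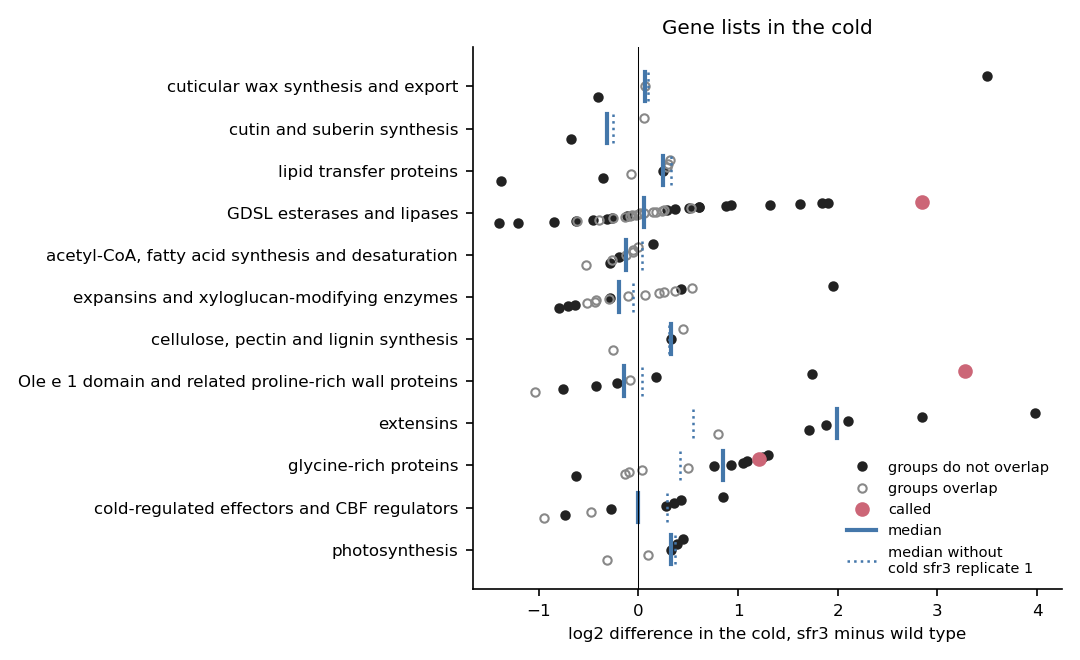
Log2 difference between sfr3 and wild type in the cold for each tested gene of 12 lists; filled points have groups that do not overlap, open points overlap, red points were called, and blue lines are list medians with all arrays (solid) and without cold sfr3 replicate 1 (dotted). The extensin median moves from 2.00 to 0.55 and the glycine-rich median from 0.85 to 0.42, while GDSL genes lie on both sides of 0.

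Several genes of cold acclimation were bright in both genotypes. COR15A and COR15B, which protect chloroplast membranes during freezing, had signals of 10604 and 10506 and of 3902 and 3864 in cold sfr3. In cold wild type COR15A had 7421 and 8338 (log2 0.42, adjusted p = 0.483) and COR15B had 2814 and 3650 (log2 0.28, adjusted p = 0.617). LTI30, a dehydrin gene, had 6715 and 6290 against 4876 and 5305 (log2 0.35, adjusted p = 0.415). Under quantile normalization the signs of COR15A (-0.34) and LTI30 (-0.057) were the opposite. None of the 8 tested genes of this list was called, and the median was 0.00 (0.29 without cold sfr3 replicate 1). STZ, a zinc-finger repressor induced by cold and other stress, had 108 and 118 in cold sfr3 against 48.7 and 77.6 (log2 0.85, adjusted p = 0.333), and COR27 had 302 and 252 against 316 and 355 (log2 -0.28, adjusted p = 0.573). The other 3 lay lower in sfr3 without being called: AT4G33980 had a log2 difference of -0.74 without overlap, COR47 had -0.47 with overlap, and LEA4-5 had -0.95 with overlap and 0.44 without cold sfr3 replicate 1.

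No tested gene of the flavonoid (5 of 20), clock (1 of 18), starch, sugar and proline (3 of 18) or photosynthesis (5 of 28) lists was called. UGT78D1, a flavonol rhamnosyltransferase, had signals of 16.97 and 56.5 in cold sfr3 and of 121 and 156 in cold wild type (log2 -2.06, adjusted p = 0.295; -1.25 without cold sfr3 replicate 1, whose signal was below background). AT1G06000, another flavonol rhamnosyltransferase, had 72.5 and 89.1 against 128 and 131 (log2 -0.67, adjusted p = 0.599). None of the 5 tested flavonoid genes was called, and their median was -0.36 (-0.31 without cold sfr3 replicate 1). GI, a clock gene, had 540 and 602 in cold sfr3 against 859 and 798 (log2 -0.54, adjusted p = 0.369), and ATSPS4F, a sucrose phosphate synthase gene, had 144 and 186 against 314 and 281 (log2 -0.85, adjusted p = 0.339). The photosynthesis gene RCA, the activase of Rubisco, had 8302 and 7433 against 5798 and 5760 (log2 0.44, adjusted p = 0.441), with the opposite sign under quantile normalization (-0.13).

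Without cold sfr3 replicate 1, 41 of the 106 called probe sets were paired with 1 gene, 17 higher and 24 lower. Of the 106, 74 had groups that did not overlap in the same direction when that array was kept. Over all probe sets tested, 41.9% had groups that did not overlap, in either direction. The calls made without that array have replicate 2 outside both wild-type arrays by rule, and those made with all arrays have no overlap by rule. AT5G08520, a MYB-related transcription factor gene, had signals of 24.5 and 35.4 in cold sfr3 and of 78.6 and 95.1 in cold wild type. Its log2 difference was -1.49 (adjusted p = 0.117) with all arrays and -1.24 (adjusted p = 0.0267) without that array. AT2G35880 of the TPX2 family of microtubule-associated proteins had 15.1 and 30.1 against 68.5 and 77.0 (adjusted p = 0.168, and 0.0274 without that array). Both genes were lower on each sfr3 array, below background on replicate 1. AT5G26360, a subunit of the cytosolic chaperonin, had 128 and 161 against 304 and 345 (log2 -1.16, adjusted p = 0.119, and 0.0348 without that array). UBP21, a ubiquitin-specific protease gene, had 20.9 and 10.3 against 60.5 and 51.5 in the cold, and 11.97 and 8.61 against 31.2 and 31.9 in the warm. It was thus lower in sfr3 on every array at both temperatures. The log2 differences were -1.78 in the cold (adjusted p = 0.339) and -1.45 in the warm (adjusted p = 0.99997). Its signal on cold sfr3 replicate 1 was below background, and without that array the cold difference was -2.22.

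Genes that mark other organs were looked at because the harvested tissue was named differently. In bulk tissue, fewer cells of a type and less RNA per cell cannot be told apart. Of 9 root markers 2 were paired with a probe set, and their summed signal was 43.7 to 116 in cold sfr3 and 30.0 to 32.2 in cold wild type. PYK10, a beta-glucosidase of root endoplasmic-reticulum bodies, gave nearly all of it, with 112 and 40.01 in cold sfr3 and 28.8 and 31.8 in cold wild type, while the root peroxidase gene AT5G66390 was below background on all 4 cold arrays. Among the cold arrays PYK10 was highest on replicate 1, as were the named extensins; in the warm it was brighter, with 202 and 199 in sfr3 and 196 and 132 in wild type. Its part in those results was not tested. AMS, the 1 measured flower marker of 13, was also below background on the 4 cold arrays. The senescence gene SAG101 had overlapping groups, and no stem or seed marker was paired. The summed signal of the 5 measured leaf photosynthesis genes was 23429 and 26598 in cold sfr3 and 20487 and 21026 in cold wild type.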

How the data were processed

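Affymetrix ATH1 arrays were used with 1 array per sample. The authors deposited linear MAS5 intensities, made with MAS5 and GCOS per the submitters' processing notes, which give no versions. How background and mismatch probes were treated is not stated there. The 2% trimmed mean was 100 on every array, as checked on the values. The table held 22810 probe sets, and 64 controls were left out.

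Signals were taken to log2 after adding 2.17, their 10th percentile. Probe sets in the top 60% by mean signal (26.7 or more) were tested, 13648 in all. All 8 arrays were fitted in limma 3.58.1 (R 4.3.3) with a mean per group, an intensity trend, 4 residual and 5.17 prior degrees of freedom. P-values are two-sided limma values adjusted by Benjamini-Hochberg over all probe sets tested. Nothing in the labels says that replicates came from separate plants, so p-values measure only how these arrays vary, which may be technical. The number of arrays limits the precision. The computation was tested on simulated data with the replicate spread of each group; sizes were recovered, but a larger share of the calls was false than the adjusted threshold allows.

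Genes were named from the platform's annotation and a TAIR10.1 gene table, used for names only: 7336 of the tested probe sets had 1 gene, 277 several and 6035 none. The brightest probe set stood for a gene. A bound is the higher group's mean over the background level, or over the signal of the gene itself where it exceeded that level.

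The rule for naming took the called genes with the widest gap between arrays (up to 20 higher and 20 lower), and in each list up to 4 called genes or else the 2 with the smallest p. Some genes that it picked are not described above, among them ACLB-1, EXPA8, AT1G62500, ATPMEPCRB, SWEET11 and ATPC1. Some list members that it did not pick are described, such as AT1G24360. The members and lists were chosen with earlier results of these data known. The lists of GDSL, thioesterase, Ole e 1, extensin and glycine-rich genes, the 2-fold rule, and other named genes (among them UBP21, AT5G08520, AT2G35880, AT5G26360, AT2G37870, AT4G21620, XTH18 and AT5G37690) were chosen after values were seen. One mislabelled locus was removed from the cold list after values were seen, and lists matched on gene descriptions are not reported, since the gene table held none.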

Additional observations from a re-analysis of the deposited data

Results flagged for a closer look

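The difference between sfr3 and wild type was itself different in the cold and in the warm for 5 probe sets, by the interaction term of the limma model. AT2G16630 had an interaction of 3.27 (SE 0.30, adjusted p = 0.0112) and HAT2 one of -2.65 (SE 0.32, adjusted p = 0.0416). The value of HAT2 uses cold sfr3 signals below background, and its interaction was called under only 5 of 15 other settings: it was lost with a pseudocount of 16, with no filter, under quantile normalization, with the replicate block, and without either cold wild-type array or any 1 warm array. The interaction of AT2G16630 was called under 9 of 15. The probe sets without a gene in the annotation had 3.95 (247717_at, SE 0.32, adjusted p = 0.00683), 4.80 (247718_at, SE 0.54, adjusted p = 0.0310) and 2.64 (264146_at, SE 0.30, adjusted p = 0.0310). Their interactions were called under 11, 8 and 8 of the 15 other settings, in that order. All 5 probe sets were also called in the cold, and that call requires both cold sfr3 arrays on one side of both cold wild-type arrays.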

How the results depend on the processing

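The 17 calls in the cold became 4 with only the cold arrays, 10 with array weights, and 6 to 5372 when 1 array was left out. The replicate block gave 16, although deviations of same-numbered replicates correlated at only -0.087 to 0.052 and the arrays share no more than a number; the other settings gave 15 to 17. The 0 calls in the warm became 1 with array weights and 0 to 1 when 1 array was left out. The 5 interaction calls became 3 under quantile normalization and 0 to 3802 when 1 array was left out. The 94 probe sets with a 2-fold difference on all pairs became 227 to 2891, an alternative chosen after seeing the data. Values with the opposite sign came under quantile normalization for COR15A (-0.34), LTI30 (-0.057), RCA (-0.13), SAG101 (-0.13) and AT5G33370 (-0.083), and with median-centred arrays for AT5G33370 (-0.059) and AT5G61590 (-0.057). When 1 array was left out, the log2 differences of genes whose groups overlapped ran from -0.00082 to 0.12 for AT5G33370, from -0.13 to 0.25 for AT5G61590 and from -0.17 to 0.50 for SAG101; LEA4-5 ran from -2.34 to 0.44. The causes were not tested. The median over all probe sets, -0.01, was -0.13 with median-centred arrays. Of the 270 alternative values of the 17 called probe sets, 198 kept the call, 72 lost it and 0 turned their direction. The background of 35.4 on cold sfr3 replicate 1 limits what can be said of dim genes.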

Other observations

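Of the 51 single-gene probe sets with a 2-fold difference on all 4 cold array pairs, 4 belonged to annotated pseudogenes, 3 higher and 1 lower in sfr3. This is 7.84%, against 0.818% (60 of 7336) of all tested single-gene probe sets. The share rests on 4 probe sets and on a rule chosen after the values were seen. The higher pseudogenes AT5G32510 and AT5G35260 passed the filter on mean signal only through cold sfr3, so the filter sets part of that share. AT5G32510 had 169 and 91.3 in cold sfr3 against 22.7 and 3.93 in cold wild type, where the 3.93 was below the background level of its array (8.57). AT5G35260 had 135 and 48.8 against 20.9 and 18.5. The called genes AT5G47330 and HAT2 are near neighbours on chromosome 5, with 3 protein-coding genes between them, of which 0 were tested; AT5G47330 was higher and HAT2 lower in cold sfr3. A few further genes had a wide gap between the groups and were not called. AT5G38850, an immune receptor gene of the TIR-NBS-LRR class, had signals of 154 and 51.4 in cold sfr3 and of 7.72 and 11.9 in cold wild type (adjusted p = 0.220). AT5G13350, a member of the auxin-conjugating GH3 family, had 188 and 90.3 against 30.3 and 40.03 (adjusted p = 0.276). AT1G20030, a thaumatin-like gene, had 6.74 and 44.3 against 130 and 92.5 (log2 -2.46, adjusted p = 0.314; -1.26 without cold sfr3 replicate 1, whose signal was below background). These genes were chosen after their values were seen.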
